A study of Mus musculus with 2 samples.

Results

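The mRNA levels of 8 genes of the urea cycle and of amino acid catabolism were followed in the liver of apoE-KO mice. The genes were chosen by symbol, Nags, Cps1, Otc, Ass1 and Asl of the urea cycle and Hpd, Tdo2 and Got1 of amino acid breakdown, and they are 8 of the 16727 genes tested on the array. Male apoE-KO mice on the C57BL/6 background received either normal chow or a high-Chol diet, which was this chow with 1.25% cholesterol (Chol), for 1 week from the age of 10 weeks. All animals of both diets lacked apoE, a ligand for the uptake of lipoprotein remnants, so both diets were compared within a hypercholesterolemic strain and no wild-type liver was examined. Total RNA of the liver was labelled with Cy3 and hybridised to one-colour Agilent whole mouse genome arrays, 3 per diet. The methods speak of independent experiments, and the sources used here do not say whether an array held the RNA of 1 mouse or of a pool. The p-values therefore measure the spread between these arrays.

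The urea cycle turns the ammonia released by amino acid breakdown into urea, and its complete form runs in the hepatocytes around the portal vein. Its first steps lie in the mitochondrion and the later ones in the cytosol, and its enzyme genes are known to respond to glucagon, glucocorticoids and dietary protein. Amino groups reach it through aminotransferases, while the carbon skeletons of tyrosine and tryptophan are taken apart by separate enzyme chains that start or pass through the enzymes included here.

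None of the 8 genes passed the test, and their mean levels were lower on the high-Chol diet by a small margin, from 1.14-fold for Nags to 1.39-fold for Tdo2. Levels are given as the log2 of the spot signal relative to the 75th percentile of the non-control spots of the same array, and a difference is the mean of the high-Chol arrays minus the mean of the normal chow arrays on this log2 scale. All 8 differences were below 0, with a median of -0.33 and a range from -0.47 to -0.19. By limma, 0 of the 8 genes reached an adjusted p under 0.05 over all genes tested (adjusted p from 0.26 to 0.64), and 0 had an unadjusted p under 0.05. In the background, 2.92% of all genes tested were called in either direction and 0.227% were called lower. The 95% intervals of all 8 differences contained 0, with lower ends from -1.01 to -0.62 and upper ends from 0.03 to 0.35. None of the 8 was more than 1.5-fold lower, a size that 5.84% of all genes tested passed. This holds under scaling to the 75th percentile. Under scaling to the median, where the median of all genes was -0.26, Asl (-0.63), Hpd (-0.60), Tdo2 (-0.71) and Got1 (-0.64) passed that size. The same genes passed it in the authors' deposited values.

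The arrays differed in ways that bear on these values. The 3 normal chow arrays and 1 high-Chol array lay on slide 1, and the other 2 high-Chol arrays lay on slide 2, which was scanned in another session and read with another software version. The 75th percentile of the signal was 271 to 373 scanner units on slide 1 and 762 to 799 on slide 2. Across genes, which are not independent replicates, Pearson's r was 0.983 to 0.991 between the normal chow arrays, 0.976 to 0.988 between the high-Chol arrays and 0.956 to 0.982 between diets, and 450 genes were called higher and 38 lower. These counts depended on the setting, with 0 genes called by limma under normexp, a model-based background correction (306 at an unadjusted p under 0.05), 11 with slide as a block and 26 with no filter on dim probes. Leaving out the chow array at position 2 gave 42, and leaving out the slide 1 high-Chol array gave 2314 higher and 760 lower. The Apoe probe read 1.66 to 3.81 with normal chow and 3.18 to 3.56 with high-Chol feeding; whether it lies in the disrupted part of the gene is not given in the sources used here, so it does not check the genotype.

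The 8 genes were read by 13 probes of 60 bases, 1 probe for 4 genes, 2 for Ass1, Nags and Tdo2, and 3 for Otc. All 13 were well above background on all 6 arrays, so none entered through the diet in which it was brighter, and 0 of their spots were saturated. The probe with the highest mean signal stood for its gene. In the mm7 positions of the array annotation, 6 of the 13 probes spanned more of the genome than their own length, as a probe does that crosses an exon junction. The sequences of 5 such probes are shown because the text compares probes of the same gene or rests on them for the genes whose diets did not overlap. In the first, the capitals mark the 20 bases that it shares with the second Ass1 probe. It lies at chr2:31526070-31527709 on the plus strand.
Ass1, probe A_52_P361165: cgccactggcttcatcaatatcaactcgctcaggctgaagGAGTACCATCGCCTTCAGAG
The Tdo2 probes span chr3:82073120-82074397 and chr3:82068883-82071893 on the minus strand and share no position.
Tdo2, probe A_51_P452625: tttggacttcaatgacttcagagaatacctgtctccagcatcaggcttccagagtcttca
Tdo2, probe A_52_P404341: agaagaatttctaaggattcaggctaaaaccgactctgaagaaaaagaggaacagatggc
The single Asl probe spans chr5:129249917-129250502 on the minus strand, and the Otc probe spans chrX:8709867-8733514 on the plus strand.
Asl, probe A_51_P174645: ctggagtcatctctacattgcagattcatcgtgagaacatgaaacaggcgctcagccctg
Otc, probe A_51_P126563: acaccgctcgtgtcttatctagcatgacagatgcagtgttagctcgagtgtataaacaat

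Among the mitochondrial members, Nags makes N-acetylglutamate, the activator without which carbamoyl phosphate synthetase 1 is inactive. Its levels were 5.32, 5.25 and 4.96 with normal chow, against 5.16, 4.55 and 5.25 with high-Chol feeding. The diets overlapped, with 1 high-Chol array low and the other two inside the chow range, and the difference was -0.19 (SE 0.23, exact permutation p = 0.5, two-sided). Leaving out the lowest high-Chol array (slide 2, position 2) turned the Nags difference to 0.030. The second Nags probe gave a difference of -0.41 with overlapping diets.

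Cps1 encodes carbamoyl phosphate synthetase 1, which fixes ammonia in the first committed step. Its levels were 6.85, 6.98 and 6.90 with normal chow, against 6.63, 6.51 and 6.78 with high-Chol feeding. All high-Chol arrays lay below all chow arrays, and the difference was -0.27 (SE 0.15, limma adjusted p = 0.32). The exact permutation p was 0.1, two-sided, the smallest that 3 arrays against 3 allow. 

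Otc encodes ornithine transcarbamylase, the X-linked enzyme that joins carbamoyl phosphate to ornithine. Its brightest probe read 6.21, 6.49 and 6.05 with normal chow, against 6.03 and 5.94 on 2 high-Chol arrays, its spot on the third (position 2 of slide 2) being marked as an outlier by the software and left out. The difference was -0.26 (SE 0.20, limma adjusted p = 0.45). The Otc probe shown above, which had a value on every array, read 4.78, 4.96 and 4.68 with normal chow, against 4.76, 4.65 and 4.66 with high-Chol feeding, with overlapping diets and a difference of -0.11. The third Otc probe gave a difference of -0.43, again with overlap.

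In the cytosol, Ass1 encodes argininosuccinate synthase, which brings in the second nitrogen as aspartate. Its levels were 8.36, 8.10 and 8.29 with normal chow, against 8.14, 7.89 and 7.85 with high-Chol feeding. The diets overlapped by 1 high-Chol array, and the difference was -0.30 (SE 0.16, limma adjusted p = 0.32). The second Ass1 probe, which shares the capital bases above, read 8.06, 7.72 and 7.89 with normal chow, against 7.68, 7.53 and 7.36 with high-Chol feeding. These values did not overlap, at a difference of -0.37, so the neighbouring probes gave like differences and a different reading of overlap.

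Asl encodes argininosuccinate lyase, which releases arginine and fumarate. Its levels were 6.45, 6.55 and 6.43 with normal chow, against 6.22, 5.77 and 6.27 with high-Chol feeding. The diets did not overlap, 1 high-Chol array was well below the other two, and the difference was -0.39 (SE 0.18, limma adjusted p = 0.26, exact permutation p = 0.1, two-sided).

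Of the enzymes outside the cycle, Got1 encodes the cytosolic aspartate aminotransferase, which forms the aspartate that argininosuccinate synthase uses. Its levels were 6.64, 6.16 and 6.46 with normal chow, against 6.18, 5.81 and 6.05 with high-Chol feeding. The diets overlapped by the lowest chow array and the highest high-Chol array, and the difference was -0.41 (SE 0.19, limma adjusted p = 0.26).

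Hpd encodes 4-hydroxyphenylpyruvate dioxygenase, the second enzyme of tyrosine breakdown. Its levels were 6.99, 7.34 and 7.17 with normal chow, against 7.08, 6.49 and 6.84 with high-Chol feeding. The high-Chol array of slide 1 lay within the chow range, and the difference was -0.36 (SE 0.20, limma adjusted p = 0.33).

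Tdo2 encodes tryptophan 2,3-dioxygenase, the hepatic enzyme that opens the kynurenine pathway. Its levels were 6.28, 6.46 and 6.47 with normal chow, against 5.94, 5.52 and 6.33 with high-Chol feeding. The difference was -0.47 (SE 0.23, limma adjusted p = 0.27), with an SD of 0.41 (n = 3) among high-Chol arrays and 0.11 on normal chow. The order of the members by difference changed with the probes used. Averaged over probes, Tdo2 had -0.35, against -0.41 for Got1 and -0.39 for Asl. The second Tdo2 probe gave a difference of -0.22, smaller than that of the first, with 1 high-Chol array at 6.41, above all chow arrays of that probe (6.02 to 6.26).

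**Figure D1:**
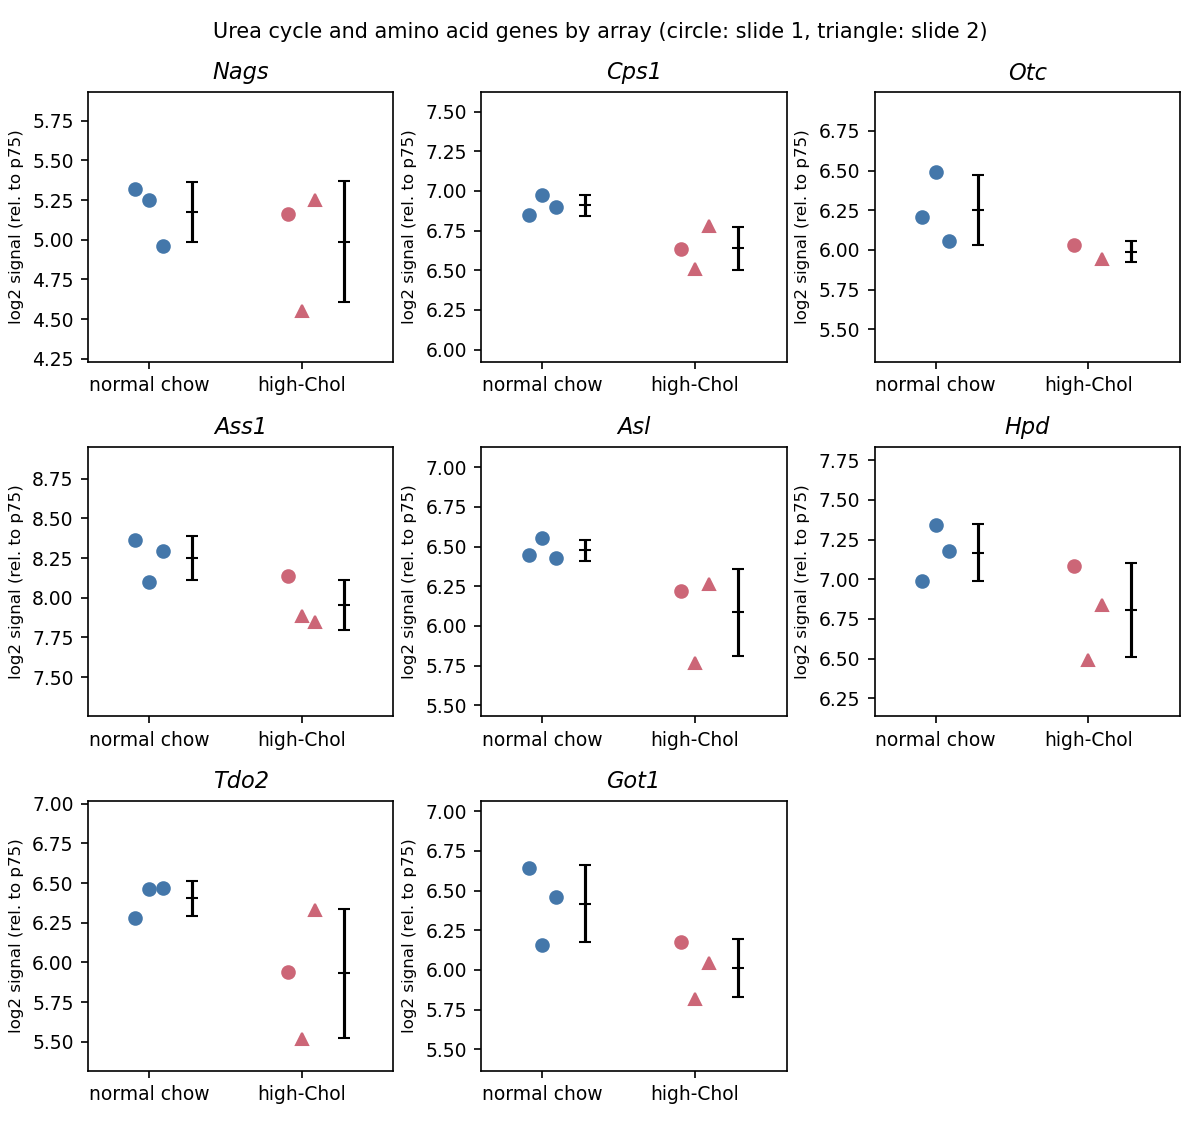
Log2 signal relative to the 75th percentile of the array (vertical axes, each 1.7 units tall) of the 8 genes on normal chow (blue) and the high-Chol diet (red), with circles for slide 1, triangles for slide 2, and the mean ± SD in black. The red points of Cps1 and Asl all lie below the blue points, those of 5 other genes overlap with them, and Otc has 2 red points because 1 spot was left out.

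Of the 7 members with a value on every array, 2 had diets that did not overlap, Cps1 and Asl, both lower on the high-Chol diet. Over all genes with a value on every array, 14% had diets without overlap with the high-Chol diet lower and 11.9% with it higher. The lowest of the 6 arrays was the one at position 2 of slide 2, a high-Chol array, for 6 of these 7 members, and the array at position 3 of that slide for Ass1. Set against the mean of the normal chow arrays, the member median was -0.23 on the high-Chol array of slide 1, -0.63 on the array at position 2 of slide 2 and -0.26 on the array at position 3. Within slide 1, all 8 differences were below 0, from -0.46 for Tdo2 to -0.01 for Nags. Of the 13 member probes, 11 were lower there, the exceptions being an Otc probe (0.058) and a Nags probe (0.062) that did not stand for their genes. This comparison within a slide rests on 1 high-Chol array. With slide as a block in limma, 0 of the 8 members were called, and of all genes 0.0658%.

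The 8 genes are among the brightest on the array, and bright spots as a whole read lower on the high-Chol arrays. Over the 923 genes whose mean level was at or above that of Nags, the dimmest member (5.08), the median difference was -0.22 and 83.1% of differences were below 0, against -0.02 and 52.2% over all genes tested. Of those bright genes with a value on every array, 33.7% had diets without overlap with the high-Chol diet lower. The member median of -0.33 differed from the median of these genes by -0.11, and 3 members, Tdo2, Got1 and Asl, lay below their 25th percentile of -0.37. The part of brightness in the members' differences was not tested.

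**Figure D2:**
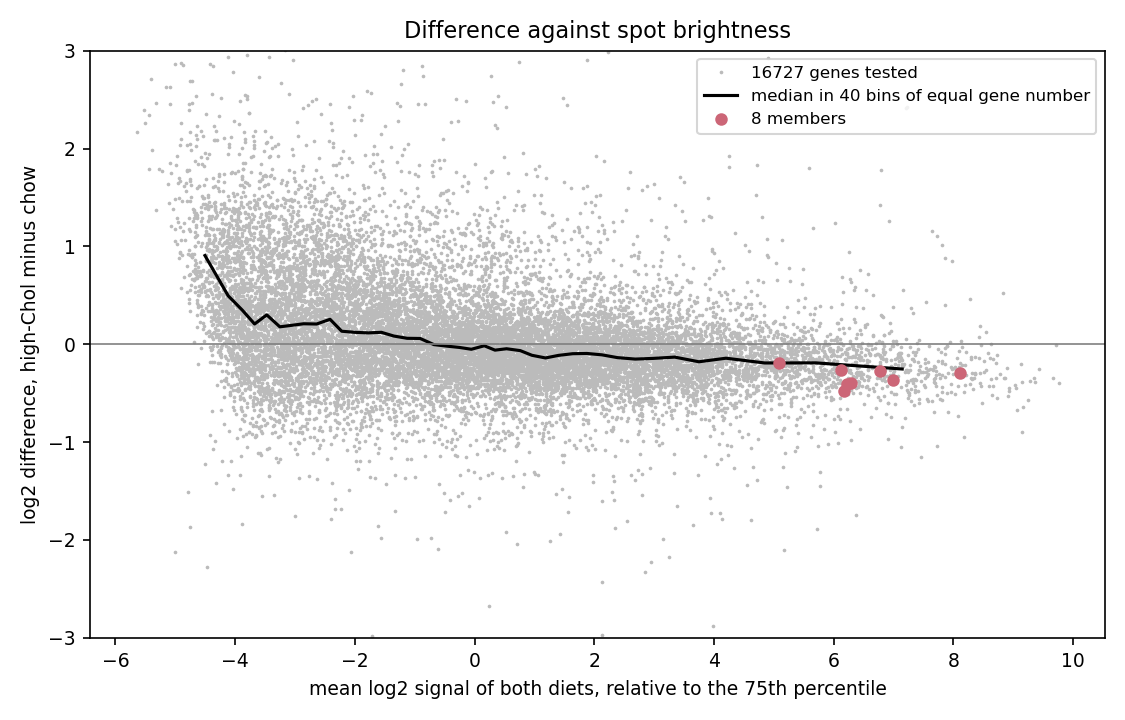
Log2 difference, high-Chol diet minus normal chow (vertical axis, drawn from -3 to 3, with the few genes beyond it not shown), against the mean log2 signal of both diets for 16727 genes (grey), with the running median over 40 bins of equal gene number (black) and the 8 members (red). The running median is above 0 for dim spots and below 0 for bright ones, and the members lie at the bright end, near or below it.

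The direction was not the same under all treatments of the background signal. With the software-subtracted signal, all 8 differences were below 0 under scaling to the 75th percentile, to the median (-0.71 to -0.43) and by quantiles (-0.30 to -0.0027). With a normexp background, an offset of 50 scanner units (in the normexp values unless stated) and the same 75th percentile scaling, 4 of 8 were below 0 and the member median was 0.011. Nags, Otc, Ass1 and Hpd turned positive there, Otc by the most at 0.43, and Cps1, Asl, Tdo2 and Got1 stayed below 0. Without the offset, 6 of 8 were below 0 with a median of -0.046, and Otc (0.40) and Nags (0.15) were positive. With the offset added to the software-subtracted signal, all 8 were below 0 with a median of -0.22. The median of the 923 bright genes was 0.09 with normexp and its offset and 0.037 without the offset. The median of all genes tested moved from -0.02 to -0.26 under median scaling and to -0.11 with normexp; relative to it, the member median was lower under median scaling and higher with normexp.

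**Figure D3:**
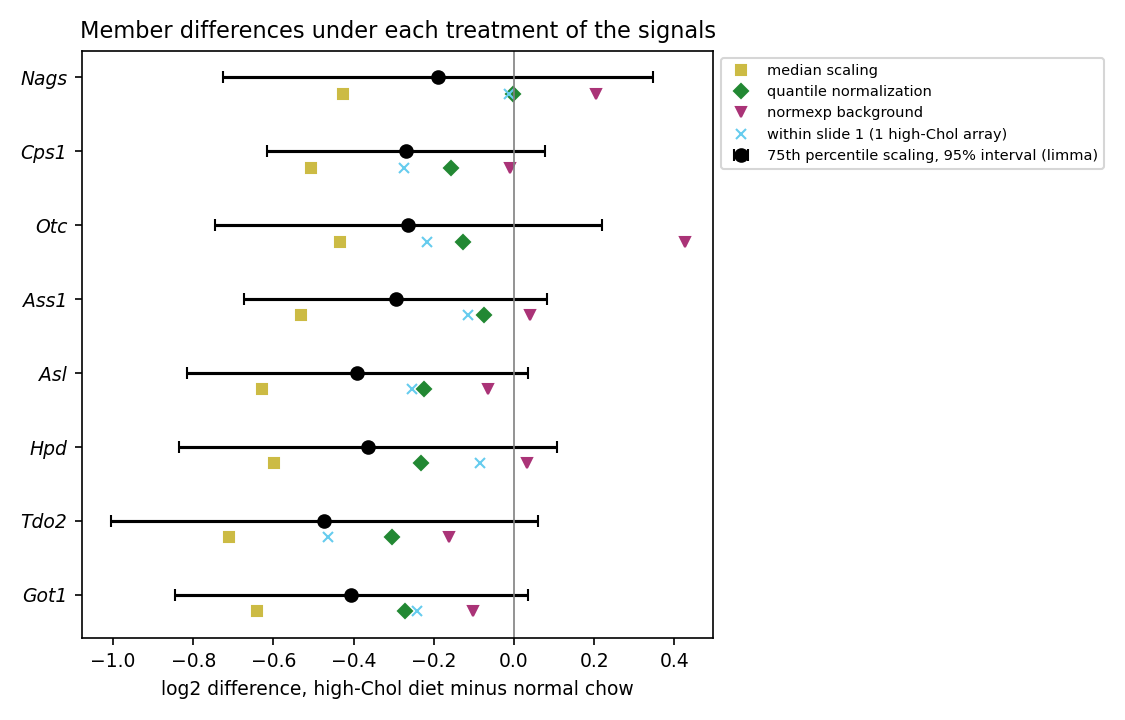
Log2 difference, high-Chol diet minus normal chow (horizontal axis), of the 8 genes: black points with the 95% interval of limma under 75th percentile scaling, and coloured symbols for median scaling, quantile normalization, a normexp background and the values within slide 1. All black intervals contain 0, and the normexp values of 4 genes lie above 0.

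Further genes of amino acid metabolism and its regulation, 97 in 10 lists, were read beside the 8. Of these, 1 passed the test, Slc38a3, which was lower. This is 1.03% of the 97, against 2.92% of all genes tested in either direction, while 79 of 97 had a lower mean on the high-Chol diet and the median difference was -0.25, against -0.02 for all genes and -0.22 for the bright genes. Many of the 97 are dimmer than those bright genes. At an unadjusted p under 0.05, 2 were higher and 17 lower, against 12.3% and 8.83% of all genes tested. The 2 higher genes, Psat1 and Phgdh, were above background on only 4 and 5 arrays. Each therefore passed the filter on dim probes through 1 diet only. With a normexp background 50 of 97 were lower and the median was -0.02, and a block for slide left 63 of 97 lower with a median of -0.096.

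The 13 genes of urea cycle transport and ammonia handling held the called gene, and 12 of them were lower, with a list median of -0.34. Slc38a3, a glutamine transporter of hepatocytes, read 6.62, 6.68 and 7.03 with normal chow, against 6.02, 5.58 and 5.79 with high-Chol feeding. The diets did not overlap, and Slc38a3 fell by 0.98 on the log2 scale (SE 0.19, limma adjusted p = 0.045). With slide as a block its difference was -0.76 and its limma adjusted p was 0.42. The call was lost when any 1 of 5 arrays was left out, all but the high-Chol array of slide 1. In those 5 fits its difference was -1.06 to -0.86.

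In the other lists of enzymes no gene passed the test, and the genes named here are those with the largest difference in size of each list. Of the 12 aminotransferases, 9 were lower, with a list median of -0.31, and Psat1, which acts in serine synthesis, had 0.88 (SE 0.24, limma adjusted p = 0.12) and was above background on 1 chow array, and with a normexp background it had -0.59. Of 7 genes of phenylalanine and tyrosine breakdown, 5 were lower with a median of -0.28, and Tat, the tyrosine aminotransferase that makes the substrate of Hpd, had -0.52 (SE 0.24, limma adjusted p = 0.27) with overlapping diets. Of 6 tested genes of the kynurenine pathway downstream or beside Tdo2, 4 were lower with a median of -0.07, and Kmo, the kynurenine hydroxylase (Ido1 was below the filter and Haao was not analysed here), had -0.41 (SE 0.21, limma adjusted p = 0.31).

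Of 12 tested genes of serine, glycine and threonine metabolism, 10 were lower with a median of -0.34, and Sardh, which demethylates sarcosine, had -0.68 (SE 0.22, limma adjusted p = 0.16). Of 11 genes of methionine and cysteine metabolism, 7 were lower with a median of -0.05, and Ahcy, which splits S-adenosylhomocysteine, had -0.55 (SE 0.22, limma adjusted p = 0.21). The histidine list had 3 of 4 genes lower and a median of -0.32, led by Ftcd at -0.60. The branched-chain list had 14 of 16 lower and a median of -0.19, led by Acadsb at -0.43. All 6 genes of lysine and proline breakdown were lower, with a median of -0.28 and Prodh2 at -0.48. With slide as a block, which rests on the high-Chol array of slide 1, several of these differences were smaller, at -0.041 for Kmo, -0.12 for Acadsb, -0.20 for Ahcy, -0.23 for Prodh2, -0.25 for Sardh, -0.29 for Tat and -0.36 for Ftcd. Shares of lower genes of this kind stand beside 83.1% for the bright genes and 52.2% for all genes tested, though many of the listed genes are dimmer than the bright genes.

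Among the 11 listed regulators of amino acid catabolism, 0 were called, 10 were lower, and 3 had an unadjusted p under 0.05, all lower. Over all genes tested, 2.92% were called, 52.2% were lower (83.1% of the bright genes) and 8.83% were lower at that unadjusted p. Most of the regulators are dimmer than the bright genes, which are therefore not a matched background for them. Cebpa, a liver transcription factor needed for full expression of urea cycle genes, read 5.01, 4.34 and 4.42 with normal chow, against 3.87, 2.94 and 3.90 with high-Chol feeding. It differed by -1.02 (SE 0.31, limma adjusted p = 0.15). Ppara, the nuclear receptor of the fasting response, differed by -0.94 (SE 0.26, limma adjusted p = 0.12), and Gcgr, the glucagon receptor, by -0.55 (SE 0.17, limma adjusted p = 0.16). For these 3 genes all high-Chol arrays lay below all chow arrays. They were named for their unadjusted p in the same values, so this order is no separate support. Of the 10 regulators with such values, 5 were without overlap and lower. A block for slide left -0.72 for Cebpa, -1.14 for Ppara and -0.32 for Gcgr.

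**Figure D4:**
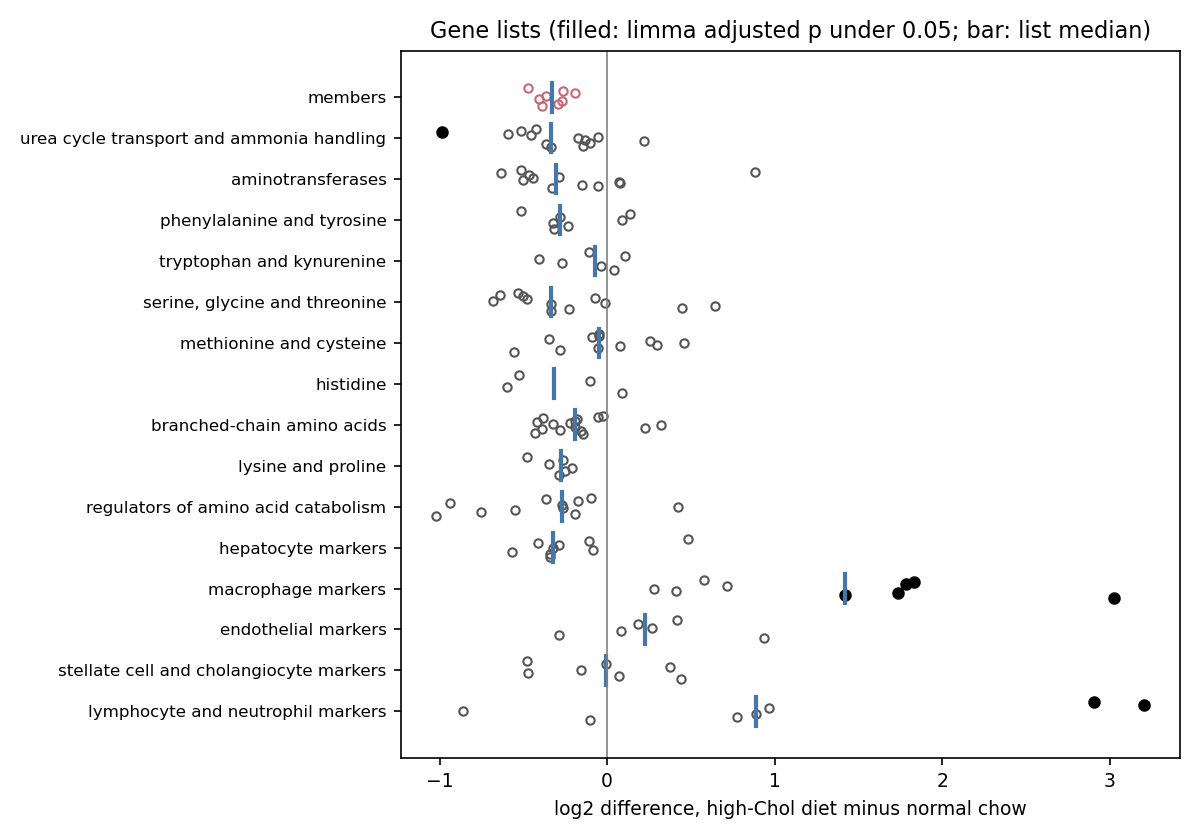
Log2 difference, high-Chol diet minus normal chow (horizontal axis), of each gene of the member list, the 10 pathway lists and the 5 marker lists, with filled points for genes called by limma and a blue bar at the list median. Most points of the metabolic lists lie between -0.6 and 0, and the filled points are Slc38a3 among the metabolic genes and, among the markers, macrophage and neutrophil genes.

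Some markers of macrophages and neutrophils were called higher on the high-Chol diet. The 9 tested hepatocyte markers had 0 called, 8 lower and a median of -0.32, but 4 lower and a median of 0.023 with a normexp background and 5 lower and a median of -0.11 by quantiles. Apoa1, which encodes the main protein of high-density lipoprotein, had the largest difference in size among them, -0.57 (limma adjusted p = 0.22), with overlapping diets. Their summed level was 11.72 to 11.84 with normal chow and 11.43 to 11.50 with high-Chol feeding. Of 9 tested macrophage markers, 5 were called, all higher, and Ccr2, Marco, Lyzs and Cd68 had the largest differences of these. Ccr2 was above background on 1 chow array and so passed the filter through the diet in which it was high; with probes above background on all 6 arrays, 4 of 8 macrophage markers were called. The summed level of the list was 7.34 to 7.59 with normal chow and 8.65 to 9.08 with high-Chol feeding. All 9 macrophage markers had a higher mean under normexp and by quantiles too, but 0 were called with normexp, with slide as a block, with no filter or by a plain test of means, and leaving out single arrays gave 1 to 5, with 1 when the array at position 2 of slide 2 was left out and 2 without chow position 2, chow position 3 or slide 2 position 3. Cd68 rose by 1.74 (SE 0.15, limma adjusted p = 0.0060). Of 7 tested lymphocyte and neutrophil markers, S100a8 and S100a9 were called higher, normexp, a block for slide or the plain test of means left 0 of the list called, and the list's summed level was 1.03 to 1.18 and 3.34 to 4.03. No endothelial, stellate cell or cholangiocyte marker was called, with list medians of 0.23 for the first and -0.01 for the others. The largest differences in size were 0.94 for Cdh5, the endothelial cadherin (limma adjusted p = 0.072), and -0.48 for Tacstd1, an epithelial adhesion molecule (limma adjusted p = 0.18). The summed level of the members was 9.87 to 9.89 with normal chow and 9.22 to 9.69 with high-Chol feeding. The lowest, 9.22, was that of the array at position 2 of slide 2, where the sum lacks Otc because its spot was left out. In RNA of whole liver, fewer hepatocytes and less RNA of these genes per hepatocyte cannot be told apart, and the part of the cell makeup in the members' values was not tested.

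The genes whose profile over the 6 arrays, centred on its own mean, lay nearest to those of the 3 members with the largest differences were found by root mean square distance among 16434 genes. For Tdo2 these were Inhbc, Map2k3 and Kalrn, at distances of 0.052 to 0.056 log2 units. For Got1 they were Atp6v0e2, Acvr1 and Ftsj3 (0.043 to 0.056), and for Asl they were Gcc2, Phf5a and Gtf2i (0.030 to 0.045). None of these 9 genes is another member or was called by limma, and their differences ran from -0.47 to -0.35. The search picks genes by likeness over the same arrays, so differences near those of the members follow from it.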

How the data were processed

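The authors deposited the scanner output of 6 one-colour arrays, whose spot intensity values were background-subtracted by Agilent Feature Extraction (9.5 for slide 1 and 9.1 for slide 2, per the file headers) and not normalized between arrays. The authors also deposited log2 values, 1 per probe and diet, normalized and filtered in GeneSpring with settings not given in the sources used here. These were used as an alternative without a test, and their diet columns had medians of -0.0019 and -0.27.

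Control spots (1639 per array) and outlier spots (75 to 196) were left out and saturated spots kept. The log2 signal was taken relative to each array's 75th percentile, probes that exceeded background clearly on each array of 1 or both diets were kept, and the brightest probe stood for its gene. Differences between diets were tested in R 4.3.3 by limma 3.58.1 (3 against 3 arrays, no covariate, Benjamini-Hochberg threshold 0.05), checked on simulated data. The number of arrays limits the precision.

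The members and lists were chosen with earlier results of these data known. Named were all members, called genes of each list (up to 4) or else the gene with the largest difference, regulators with an unadjusted p under 0.05, and the 3 nearest profiles of 3 members. Genes are named as in the array design, with older symbols matched through the RefSeq table of GRCm38.p6 (Lyzs is Lyz2). A chosen member and 3 list genes are not reported here, and counts, medians and named genes are over the rest. The labels give replicates 1 to 3 of each diet without assigning the numbers to arrays, so whether they pair the diets is not known. Alternatives changed the background correction, scaling, filter, probe choice, slide, variance prior, test and arrays included. After the values were seen, the comparison with genes as bright and 2 settings of the normexp offset were added, the scalings were changed to keep the same probe, and probe means to use the probes measured on all arrays.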

Additional observations from a re-analysis of the deposited data

How the results depend on the processing

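In every setting run, 0 members were called after adjustment over all genes, but few genes of any kind were called in some, with 0 of 16727 under normexp with or without its offset, 5 by the plain test of means, 11 with slide as a block and 26 with no filter. A plain test of means with equal variances, gene by gene, gave 1 member, Cps1, an unadjusted p under 0.05 (unlike limma, which gave 0), against 16.7% of all genes tested. The member median of -0.33 became 0.011 with a normexp background and an offset of 50, -0.046 with normexp and no offset (Otc 0.40 and Nags 0.15), -0.22 with the offset added to the subtracted signal (these last 2 chosen after seeing the data), -0.57 with median scaling, -0.19 with quantile normalization and -0.59 in the authors' deposited values, and lay between -0.42 and -0.25 when single arrays were left out. With normexp and the offset the differences of Otc (0.43), Ass1 (0.041), Nags (0.20) and Hpd (0.032) turned positive, and without the offset Ass1 and Hpd did not. Leaving out single arrays moved Nags between -0.32 and 0.030 (position 2 of slide 2 left out) and left the other members below 0. Without that array Tdo2 had -0.27, Asl -0.23, Hpd -0.21 and Got1 -0.31, so that Got1 came before Tdo2. Without the chow array at position 2, Otc had -0.14 and Got1 -0.54, ahead of Tdo2 at -0.44, and leaving out the slide 1 high-Chol array put Hpd first at -0.50. The filters, the mean over probes and slide as a block kept all 8 below 0. The count of members without overlap between diets, 2, was 0 with normexp (with or without offset) or quantile normalization. It was 1 with the offset added to the subtracted signal and 3 with median scaling. When single arrays were left out it was 3 to 5, where fewer arrays make overlap rarer.

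The 1 called pathway gene became 0 with normexp, quantile normalization, no filter, slide as a block or the plain test of means after adjustment. Leaving out single arrays gave 0 to 10. The 10 came without the high-Chol array of slide 1, when diet and slide cannot be told apart, and were 10 of 92 pathway genes against 18.4% of all genes in that fit. The count was 0 with any other array left out. The trended prior, which gave the same counts of calls among members and pathway genes, and the plain test of means do not alter differences, and the deposited values allow no call. Of the 13 member probes, each by itself was lower on the high-Chol diet, and 7 were with normexp. Against genes as bright, the member median was lower in every setting computed from the single arrays (the deposited values were not set beside such genes), with differences of -0.15 to -0.03 when single arrays were left out. No paired analysis was possible because the labels do not assign the replicate numbers to arrays.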
